A study of Mus musculus with 4 samples.

Results

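The genes described are 5 that encode mouse ligands of NKG2D, taken by symbol from the 53379 genes counted in each library: Ulbp1, Raet1e, Raet1d, H60b and H60c. Their RNA was measured by bulk RNA-seq of sorted MC38 tumor cells, in 2 non-responder and 2 responder libraries, as the labels name them. MC38 is a colon adenocarcinoma line of C57BL/6 mice, here carrying GFP, and 50000 cells were placed under the skin of C57BL/6 mice. Both groups received the same sub-optimal anti-PD-1 course, 100 µg of antibody on days 12, 15, 18 and 22, and the libraries used here include no untreated tumor. The labels do not give the animals' age, the way response was scored or the day of excision, and they do not state that libraries sharing a group are from different mice. A p-value here therefore reflects only the spread among these libraries, which may be technical.

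NKG2D is an activating receptor of natural killer (NK) cells and of activated or memory-like CD8 T cells. Its ligands are distant relatives of MHC class I heavy chains that are scarce on most healthy cells and appear with transformation, DNA damage or other stress, so that a cell bearing them can be recognised and killed. Ulbp1 encodes MULT1, a transmembrane ligand; Raet1d and Raet1e encode RAE-1 delta and RAE-1 epsilon, the GPI-anchored RAE-1 proteins of C57BL/6 mice; H60b and H60c encode a transmembrane and a GPI-anchored member of the H60 family.

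All 5 genes lie on chromosome 10 of the mm10 (GRCm38) build. H60c (ENSMUSG00000091618) spans 3256208 to 3267771 on the minus strand and Ulbp1 (ENSMUSG00000079685) 7440362 to 7473638 on the minus strand. Raet1e (ENSMUSG00000053219), H60b (ENSMUSG00000075297) and Raet1d (ENSMUSG00000078452) share a cluster on the plus strand, spanning 22158569 to 22374139, 22158586 to 22288849 and 22360552 to 22374139. Values below are counts over the annotated exons of these models.

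The RAE-1 genes are near copies of each other, which matters for every value given for them. To show how near, stretches upstream of RefSeq starts are printed 5′ to 3′ from RefSeq's GRCm38.p6 promoter table, leaving out annotated exon bases. They precede the second RefSeq start of Raet1e (chr10:22173251-22173496, plus strand) and the RefSeq start of Raet1d (chr10:22361646-22361893, plus strand). The bases that differ are in capitals. The counted models start further upstream, at 22158569 for Raet1e and 22360552 for Raet1d, and in them both stretches are intron, between annotated exons. Over 246 compared bases 243 were identical and 3 differed. The third line is the stretch of the Ulbp1 promoter window outside its annotated exons (chr10:7473639-7473727, minus strand), with 2 motif matches in capitals.
Raet1e: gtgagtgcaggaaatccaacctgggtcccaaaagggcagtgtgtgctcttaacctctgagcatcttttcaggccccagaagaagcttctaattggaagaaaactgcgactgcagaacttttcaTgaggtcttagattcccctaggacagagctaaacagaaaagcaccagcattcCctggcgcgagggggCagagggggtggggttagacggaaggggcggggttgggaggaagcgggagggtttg
Raet1d: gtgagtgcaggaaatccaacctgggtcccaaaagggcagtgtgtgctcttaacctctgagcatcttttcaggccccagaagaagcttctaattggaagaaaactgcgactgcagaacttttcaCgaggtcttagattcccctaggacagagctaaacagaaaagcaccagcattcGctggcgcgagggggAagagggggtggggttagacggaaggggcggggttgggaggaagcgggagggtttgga
Ulbp1: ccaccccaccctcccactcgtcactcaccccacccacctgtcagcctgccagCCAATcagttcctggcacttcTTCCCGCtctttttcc

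Over the 250 bases before each RefSeq start, 4 motifs were searched on both strands. They were CCAAT (the CCAAT box), TTCCCGC (a core of E2F sites), GGGCGG (the GC box) and TATAAA (the TATA box). The Ulbp1 window held 1 CCAAT and 1 TTCCCGC and no GC or TATA box. The Raet1d window and the second Raet1e window each held 1 CCAAT and 1 GGGCGG, the first Raet1e window held 2 GGGCGG, and the H60c window held none of the 4. Of 32851 promoter windows of this length in the table, 33.8% held CCAAT, 3.82% TTCCCGC, 32.7% GGGCGG and 12.4% TATAAA. A match is a run of letters and not a measured site. H60b had no entry in that table.

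The coding sequences showed the same relations. Raet1d and Raet1e were 93.5% identical over their alignment, with 31 mismatches in 741 aligned bases, 18 gap bases and an identical run of up to 165 bases. H60b and H60c were 61.2% identical, and their longest identical run was 34 bases. Each of the other 8 pairs was 36.9% to 44.2% identical with no identical run over 11 bases. Coding lengths were 1002 bases for Ulbp1, 753 for Raet1e, 747 for Raet1d, 753 for H60b and 678 for H60c.

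The counted gene models also overlap. The annotated Raet1e model runs on to the last exon of Raet1d, and all 363 bases of that exon belong to both genes, which is 25.2% of the exonic bases of Raet1d. The first Raet1e exon, of 150 bases, shares 133 bases with H60b, 11.0% of the exonic bases of H60b. A read that touches an exon of 2 genes, or that fits 2 places equally well, was not counted for either gene under the counting command in the file headers. Ulbp1 and H60c shared no exon base with another gene on their strand.

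**Figure D1:**
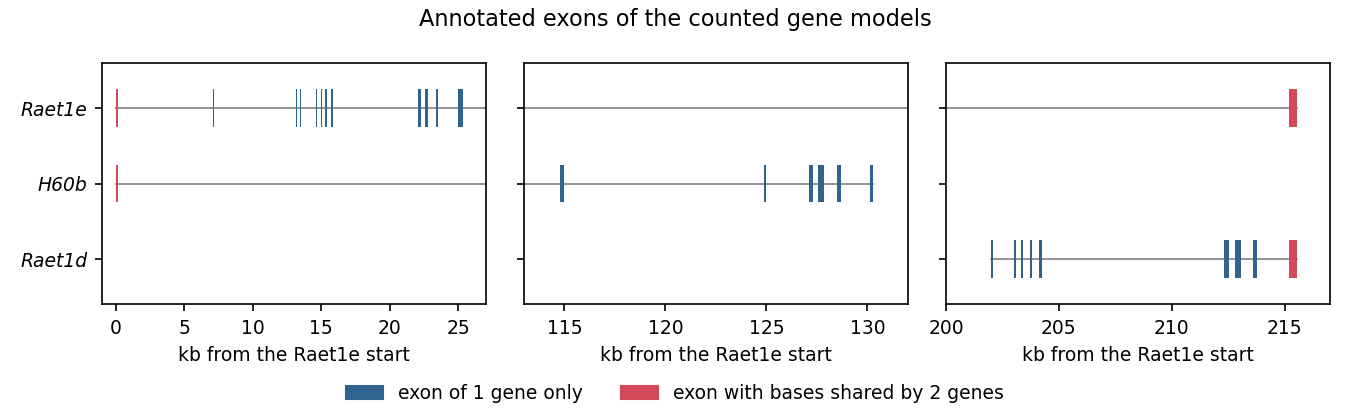
Exons of Raet1e, H60b and Raet1d as counted, drawn in 3 stretches against the distance in kb from the Raet1e start; blue boxes belong to 1 gene and red boxes hold bases of 2 genes. The red box at the right is the 363-base last exon of Raet1d, which is also a Raet1e exon, and the red boxes at the left share 133 bases between Raet1e and H60b.

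To see how much of each transcript could yield a counted read, every window of 50 bases in the annotated transcripts was checked for an exon shared with another gene and for an identical copy elsewhere in the annotated transcripts; the read length is not given in the sources used here. For Ulbp1, 98.2% of 6824 windows were free of both, and for H60c 94.3% of 2866. For H60b the share was 88.0% of 1164. For Raet1e it was 47.5% of 2110 and for Raet1d 42.7% of 1392. With windows of 100 bases the shares were 62.5% for Raet1e and 59.2% for Raet1d. The partner was the other RAE-1 gene for nearly all copied windows: 597 Raet1d windows of 50 bases had a copy in Raet1e, whereas 7 Raet1e windows had one in H60b. Counts for Raet1d and Raet1e are therefore undercounts of uncertain split, while those for Ulbp1 are little touched. Copies in unannotated sequence were not looked for.

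**Figure D2:**
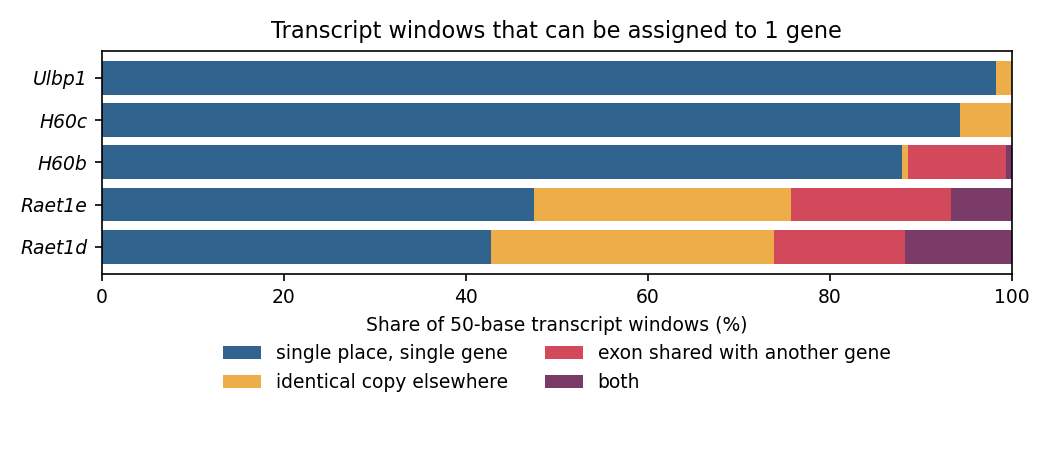
Share of 50-base transcript windows (percent, horizontal axis) of each NKG2D ligand gene that fit a single place and a single gene (blue), have an identical copy elsewhere (yellow), touch an exon shared with another gene (red) or both (purple). Under 50% of the windows of Raet1e (47.5%) and Raet1d (42.7%) are assignable, against 98.2% for Ulbp1.

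Of the 5 genes, 3 passed the low-count filter. The other two, H60b and H60c, gave almost no reads. H60c had 0 reads in each of the 4 libraries. A count of 0 allows up to 3 reads, or 0.145, 0.135, 0.149 and 0.157 CPM (counts scaled to the TMM-normalised library size) in non-responder replicates 1 and 2 and responder replicates 1 and 2. H60b had 2 reads in non-responder replicate 2 (0.090 CPM) and 0 in the other libraries, where the same limit holds. Whether these genes differ between the groups was not detectable at this depth of 18447041 to 21754063 counts per library, and these limits, like the intervals below, cover counting error only.

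Most reads counted for the 5 genes were Ulbp1 reads, but its model is also the longest. It has 6726 exonic bases, against 2159 for Raet1e and 1441 for Raet1d, and levels per kilobase are given below. Ulbp1 reached 214 CPM in non-responder replicate 1, 187 in non-responder replicate 2, and 256 in each responder replicate (4440, 4181, 5171 and 4897 reads). Both responder libraries were higher than both non-responder libraries, and the responder libraries were closer to each other than the non-responder libraries were. Counting intervals of 95% ran from 208 to 221 and from 182 to 193 CPM in the non-responder libraries and from 249 to 264 CPM over both responder libraries, so counting error did not bridge the groups. The non-responder mean was 201 ± 19.1 CPM and the responder mean 256 ± 0.013 CPM (SD, n = 2 each). The responder SD is far below the width of the counting intervals, so it does not measure the spread among responder libraries.

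The fitted difference for Ulbp1 was 1.28-fold higher in responder libraries (log2 fold change 0.35, SE 0.18, 95% interval -0.08 to 0.78), and it did not pass edgeR's quasi-likelihood test over all genes (adjusted p = 0.815 by Benjamini-Hochberg; unadjusted p = 0.0939). The interval reaches from 0.95-fold to 1.71-fold. The groups did not overlap for 36.5% of the 13792 tested genes, 18.8% with responder higher, so the non-overlap of Ulbp1 is a common pattern here. By unadjusted p, Ulbp1 was at place 1588 of those genes.

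Raet1e, the RAE-1 epsilon gene, stood at 9.71 CPM in non-responder replicate 1, 7.18 in non-responder replicate 2, 8.67 in responder replicate 1 and 8.17 in responder replicate 2 (201, 160, 175 and 156 reads). The non-responder libraries held both the highest and the lowest value, with the responder libraries between them. The fit gave a log2 fold change of -0.0029 (SE 0.27, 95% interval -0.62 to 0.62; adjusted p = 0.998, edgeR). That interval admits a change of 1.54-fold in one direction or to 0.65-fold in the other, so the data do not show that Raet1e was the same in both groups. The sign turned without non-responder replicate 1 (0.24) or responder replicate 2 (0.042) and was negative without non-responder replicate 2 (-0.21) or responder replicate 1 (-0.052).

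Raet1d, the RAE-1 delta gene, stood at 6.23 and 6.68 CPM for the non-responder pair against 6.05 and 5.81 for the responder pair (129, 149, 122 and 111 reads). Both responder values were the lower ones, a pattern shown by 17.7% of tested genes, and the counting intervals of all 4 libraries overlapped (4.78 to 7.85 CPM from end to end). The log2 fold change was -0.12 (SE 0.27, 95% interval -0.76 to 0.51; adjusted p = 0.955, edgeR). The counts of the RAE-1 genes were also summed: 330 and 309 reads in non-responder and 297 and 267 in responder libraries. The log2 fold change of the sum was -0.054 (SE 0.21; adjusted p = 0.978, edgeR). The sum holds only reads already assigned to 1 of these genes. Reads that fit both genes or touch their shared exon were not counted and are missing from it.

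**Figure D3:**
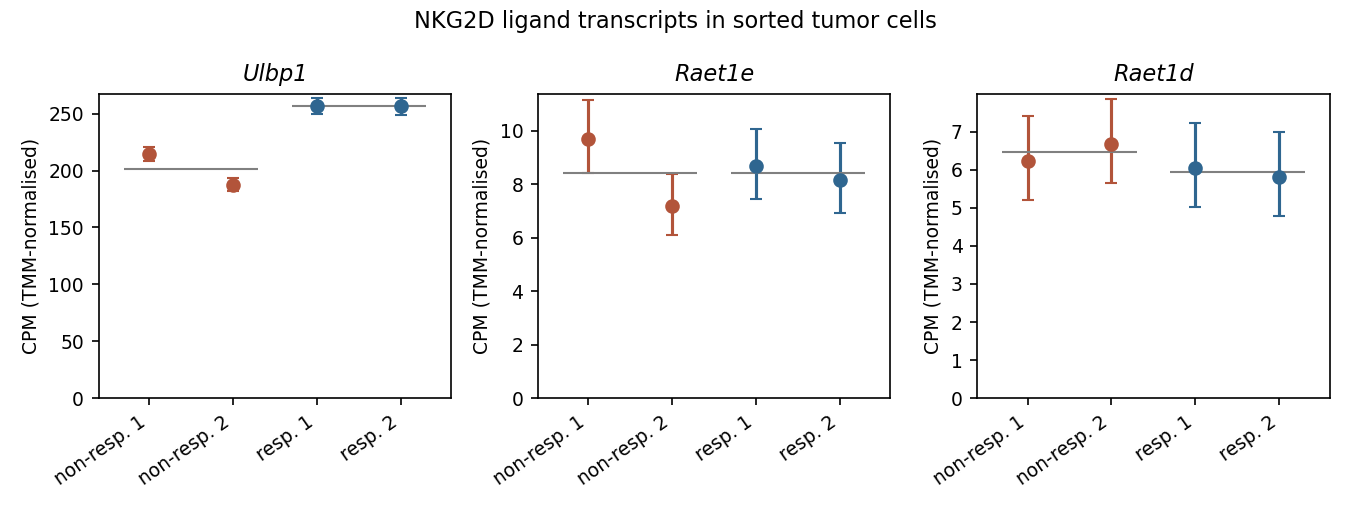
CPM, normalised by TMM, of Ulbp1, Raet1e and Raet1d (vertical axes from 0) in the 2 non-responder (red) and 2 responder (blue) libraries; bars are 95% counting intervals and grey lines group means. Both responder libraries are at 256 CPM for Ulbp1 against 214 and 187 CPM, whereas the intervals of Raet1d overlap in every library.

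None of the 3 tested ligand genes passed the adjusted threshold of 0.05, where 0 of 13792 genes passed (0%). An unadjusted p under 0.05 was found for 856 genes, 6.21% of those tested (2.57% higher and 3.63% lower), and none of the 3 was among them. DESeq2 called 62 genes and limma-voom 0, none of them a ligand gene. With non-responder replicate 1 or 2 or responder replicate 1 or 2 left out, 41, 516, 67 and 173 genes were called, again no ligand gene.

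Levels of different genes were compared per kilobase of exon. Ulbp1 had 34.0 ± 5.03 CPM per kb, Raet1d 4.30 ± 0.26 and Raet1e 3.91 ± 0.49 (SD over all 4 libraries, n = 4). Ulbp1 was thus 7.09 to 10.1 times Raet1e per kb within a library, lowest in non-responder replicate 1 and highest in responder replicate 2. The ranges of Raet1d (4.03 to 4.64) and Raet1e (3.32 to 4.50) overlapped, so those neighbours in the order did not differ beyond their spread. H60b followed at 0 to 0.074 CPM per kb, and H60c was at 0. Counted per kilobase of assignable 50-base windows, Raet1d was at 9.77 to 11.2, Raet1e at 7.16 to 9.69 and Ulbp1 at 28.0 to 38.2 CPM, so Ulbp1 remained above both with the loss of reads considered. On that scale every Raet1d value lay above every Raet1e value, which was not so per kilobase of exon, and it rests on the transcript models, not on measured read loss.

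The balance of the RAE-1 genes was furthest apart in the non-responder libraries, whose intervals overlapped, and a difference was not tested. Raet1e reads outnumbered Raet1d reads 1.56 to 1 in non-responder replicate 1 (95% exact interval 1.24 to 1.96), and the ratio was 1.07 in non-responder replicate 2 (0.85 to 1.35). In the responder libraries it was 1.43 (1.13 to 1.82) and 1.41 (1.09 to 1.81). The responder ratios lay between those of the non-responder libraries. Of the summed CPM of the 5 genes, 93.1% was Ulbp1 in both non-responder libraries, and 94.6% and 94.8% in the responder libraries. These shares are not corrected for exon length or for lost reads, so they are not shares of transcripts.

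For each tested ligand gene, the genes of at least 5 CPM whose centred log2 CPM lay nearest to it over the 4 libraries were sought among 9706 candidates, by root-mean-square distance. With 4 libraries and so many candidates a close match always exists, so these are descriptions only. Nearest to Ulbp1 were Foxm1, a transcription factor gene of the mitotic program (distance 0.015 on the log2 scale, with 139, 123, 164 and 166 CPM), Mcm2, a subunit of the replicative helicase (0.022), and Ccdc137 (0.023). Nearest to Raet1e were Rbm28, Dnaja2 and Hdgfl3 (0.0076 to 0.0084). Nearest to Raet1d were Ctnnb1, which encodes beta-catenin (0.0052), Prorsd1 and Zdhhc17 (0.012 each). Raet1d and Raet1e lay 0.20 apart from each other, and Raet1e stood at place 5233 among the candidates for Raet1d. Both rest on 111 to 201 reads per library, and the part of counting error in these distances was not tested. The place is therefore not read as a difference between the RAE-1 genes.

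Within 100 kb of the starts of the ligand genes the annotation held 21 other genes, of which 3 passed the low-count filter and 7 had no read in any library. By type they were mostly pseudogenes, 10 of them processed. C920009B18Rik, a transcribed pseudogene between H60b and Raet1d, had 13.6 and 15.6 against 16.0 and 21.3 CPM, non-responder first (adjusted p = 0.851, edgeR). Gm5421, a processed pseudogene that starts before Raet1d, had 3.09 and 3.72 against 1.59 and 2.04 CPM, with responder values lower (log2 fold change -0.91, SE 0.39; adjusted p = 0.796, edgeR). E030030I06Rik, upstream of Raet1e, had 0.82 and 1.48 against 1.14 and 1.26 CPM. The 3 tested neighbours therefore included values higher, lower and overlapping in responder libraries, and none passed.

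The transcripts of the NKG2D receptor and its adaptors were low and varied widely between libraries. Giving the non-responder pair first here and below, Klrk1, which encodes NKG2D itself, had 0.34 and 1.30 against 0.050 and 0.47 CPM (7, 29, 1 and 9 reads). Tyrobp, which encodes the adaptor DAP12, had 1.5 and 5.70 against 0 and 2.04 CPM (31, 127, 0 and 39 reads). Hcst, which encodes the adaptor DAP10, had 3, 3, 0 and 1 reads and did not pass the filter. In each of the 3 genes responder replicate 1 was lowest, and Klrk1 and Tyrobp were highest in non-responder replicate 2. The log2 fold change of Klrk1 was -1.66 (SE 0.99; adjusted p = 0.836, edgeR) and that of Tyrobp -1.82 (SE 1.68; adjusted p = 0.896, edgeR), and their median was -1.74. With 1 library left out that median ran from -0.56 (without non-responder replicate 2, where Klrk1 did not pass the filter) to -6.57 (without responder replicate 2), and Klrk1 ran from -0.80 (without responder replicate 1) to -3.90 (without responder replicate 2). Without responder replicate 2, Tyrobp was at -9.25, which rests on responder replicate 1 with 0 Tyrobp reads as the only responder library.

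The summed leukocyte, macrophage and T and NK cell markers were likewise highest in non-responder replicate 2 and lowest in responder replicate 1. The 5 leukocyte markers summed to 21.3 and 69.02 against 1.49 and 22.98 CPM, and Ptprc, which encodes CD45, had 5.94, 22.6, 0.64 and 6.91 CPM. The 7 macrophage and monocyte markers summed to 74.97, 209, 12.7 and 73.7 CPM, with the complement gene C1qa at 10.6, 38.5, 1.04 and 13.7 CPM. The 7 markers of T and NK cells summed to 0.68, 2.56, 0.25 and 1.26 CPM; 5 of them were at 0 in responder replicate 1, the NK receptor gene Ncr1 among them. All tested members of these lists (5 of 5, 7 of 7 and 2 of 7) were lower on average in responder libraries, with medians of -1.78, -1.99 and -0.84, and none passed; the macrophage marker Cd68 was nearly level, at 9.13, 10.0, 9.47 and 9.21 CPM. In bulk RNA, fewer cells of a type and less RNA per cell cannot be told apart. In the 2 responder libraries Ulbp1 was at 256 CPM each and the summed leukocyte markers at 1.49 and 22.98 CPM. In non-responder replicates 1 and 2 Ulbp1 was at 214 and 187 CPM and those markers at 21.3 and 69.02 CPM. The part of leukocyte RNA in the ligand gene values was not tested.

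The 6 fibroblast markers moved with the groups. They summed to 1300 and 1185 against 702 and 518 CPM. All 6 were lower in responder libraries without overlap (median -1.29) and with an unadjusted p under 0.05 (edgeR), where 17.7% and 3.63% of all tested genes were so. The list was chosen with earlier results of these data known, so this count is a description only. Postn, which encodes periostin, had 127 and 57.7 against 16.8 and 19.1 CPM. None of the 6 passed the adjusted threshold. Which cells made this RNA and its part in the Ulbp1 values were not tested. The 8 colon epithelial markers, against which the labelled tumor cell type was checked, were almost absent: they summed to 0.72 to 3.23 CPM, 1 of 8 (Cdh1) was tested, with a log2 fold change of -0.14, and Krt20 had no read in any library. The GFP transcript was not analysed here.

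**Figure D4:**
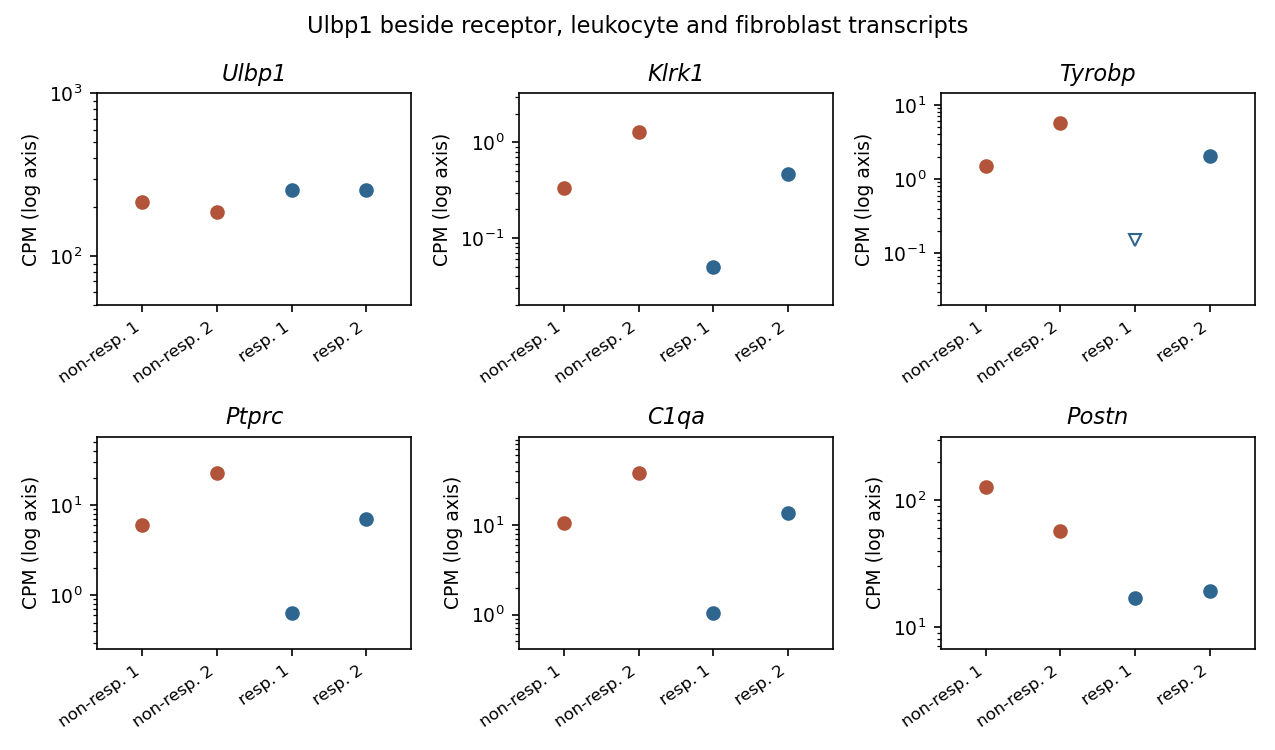
CPM on log axes of Ulbp1 and of transcripts of the NKG2D receptor (Klrk1), its adaptor (Tyrobp), leukocytes (Ptprc), macrophages (C1qa) and fibroblasts (Postn) in the 2 non-responder (red) and 2 responder (blue) libraries; the open triangle is the limit of 3 reads where no read was counted. Klrk1, Tyrobp, Ptprc and C1qa are highest in non-responder replicate 2 and lowest in responder replicate 1. Ulbp1 is at 214 and 187 CPM in non-responder replicates 1 and 2 and at 256 CPM in both responder libraries.

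Most genes of the list of known regulators of NKG2D ligand transcription had higher mean levels in responder libraries, and none passed the test. Of 16 genes, all tested, 13 were higher and 3 lower on average, with a median log2 fold change of 0.19 against -0.0071 over all genes tested. Groups did not overlap for 10, all higher, where 18.8% of all tested genes did so. An unadjusted p under 0.05 (edgeR) as higher was found for 3, where 2.57% of genes had one. The list was chosen with earlier results of these data known, so these counts are descriptions only. Chek1, a kinase of the replication stress checkpoint, had 28.9 and 26.4 against 41.8 and 43.9 CPM (log2 fold change 0.63, SE 0.17; adjusted p = 0.631, edgeR). Of the E2F factors, known to activate Raet1 transcription in dividing cells, E2f1 had 68.2 and 63.6 against 80.6 and 82.4 CPM, E2f2 5.55 and 9.51 against 10.8 and 15.0 CPM, and E2f3 53.4 and 52.4 against 65.5 and 66.7 CPM. All 3 were higher in both responder libraries, and none passed. Among the ligand genes, Ulbp1 was higher in both responder libraries, Raet1d was lower in both and Raet1e overlapped. A link between the E2F factors and the ligand genes was not tested.

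Of the genes of this list that act in DNA sensing, Cgas, Tbk1 and Irf3 had higher mean levels in responder libraries and Tmem173 a lower one. Cgas, the cytosolic DNA sensor gene, had 35.5 and 31.1 against 46.6 and 47.8 CPM (log2 fold change 0.50; adjusted p = 0.728, edgeR). Tmem173, which encodes the adaptor STING, had 45.2 and 65.7 against 46.7 and 41.8 CPM (-0.32, SE 0.21; adjusted p = 0.852, edgeR) and was highest in non-responder replicate 2, without which it was at -0.031. Tbk1, a kinase gene downstream of STING, was at 0.10 without overlap and Irf3, the transcription factor gene it acts on, at 0.087 with overlap. E2f2 had a log2 fold change of 0.77 with all libraries and of 1.21 once non-responder replicate 2 was left out. For E2f2 that fit was singled out after its values were seen, and fits without another library are not given here.

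Of 7 genes listed for shedding or surface removal of ligands, the 6 tested were lower on average in responder libraries, and none passed. Their median of -0.18 lay between the quartiles of all tested genes (-0.21 and 0.19). Of the 6, 2 were lower without overlap, where 17.7% of all tested genes were so. Mmp9, a secreted gelatinase, had 341 and 396 against 183 and 289 CPM (log2 fold change -0.64, SE 0.25; adjusted p = 0.766, edgeR). The sheddase genes Adam10 and Adam17, whose products cleave ligands of this kind, had 190 and 169 against 154 and 121 CPM and 408 and 361 against 377 and 288 CPM. March9, which encodes a ubiquitin ligase of MULT1, had 9.03 and 12.2 against 10.3 and 10.0 CPM, while March4 was too low to be tested. Responder replicate 2 was the lowest library for both Adam10 and Adam17. Whether the products of the listed genes act on the mouse ligands described here was not tested.

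The GPI transamidase attaches the anchor that holds RAE-1 proteins in the membrane. Of its 5 subunit genes, all tested, 4 were lower and 1 higher (median -0.20), 2 lower without overlap (17.7% over all tested genes), and none passed. Pigs had 64.4 and 58.8 against 52.9 and 44.8 CPM (log2 fold change -0.33, SE 0.17; adjusted p = 0.815, edgeR), and Gpaa1 had 18.5 and 30.5 against 25.4 and 35.3 CPM (0.31, SE 0.28; adjusted p = 0.89, edgeR). Leaving out non-responder replicate 1 gave -0.0027 for Gpaa1 and -0.0095 for the median, and leaving out non-responder replicate 2 gave 0.71 and -0.40.

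Other ligands of NK cell receptors went both ways. Of 10 genes, all tested, 4 were higher and 6 lower (median -0.14), 1 without overlap and higher (18.8% over all tested genes), and none passed. Pvr, a ligand of the activating receptor DNAM-1, was at 76.0 and 68.8 against 92.5 and 67.7 CPM (log2 fold change 0.15, SE 0.20; adjusted p = 0.929, edgeR), and its sign turned without responder replicate 1 (-0.10). Icam1, an adhesion ligand of LFA-1, had 1.40 and 4.39 against 1.14 and 1.41 CPM (-1.18, SE 0.58; adjusted p = 0.796, edgeR). Icam1 was at -0.14 without non-responder replicate 2 and at -1.77 without non-responder replicate 1. B2m, the class I light chain, was the gene without overlap, and was singled out after its values were seen, at 4667 and 5289 against 5513 and 5622 CPM. The class I gene H2-D1 had a log2 fold change of 0.19 with all libraries and of 0.92 once non-responder replicate 2 was left out. For H2-D1 that fit was singled out after its values were seen, and fits without another library are not given here. H2-D1 had 636 CPM in non-responder replicate 1 and 1191 to 1468 CPM elsewhere.

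**Figure D5:**
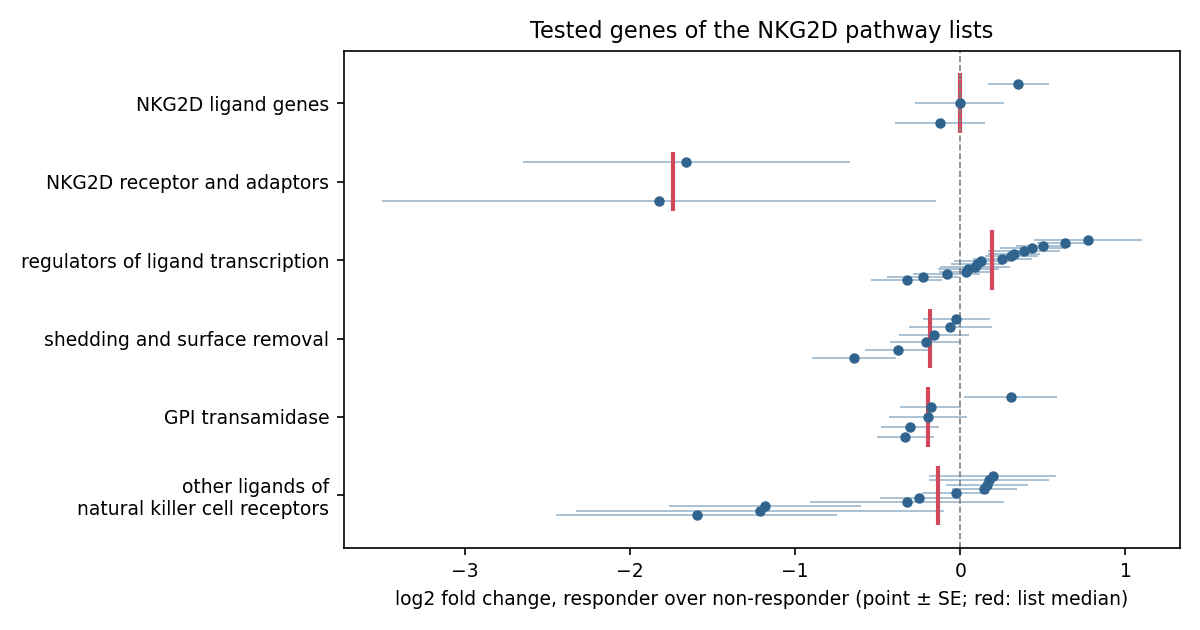
Log2 fold change, responder over non-responder, with SE (horizontal axis) of the tested genes in the ligand set and 5 pathway lists; each point is a gene and the red line is the list median. Ulbp1 is the point at 0.35 in the top row, and the regulators have a median of 0.19; no point passed the test.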

How the data were processed

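Bulk RNA-seq of 4 libraries was used, grouped and numbered by the sample titles. The deposited values are raw counts per gene, made by the authors with featureCounts 1.6.1, reverse-stranded (setting 2), on Ensembl release 91, per the file headers; STAR and mm10 (GRCm38) are named in the submitters' processing notes, with settings not given in the sources used here. The commands asked for neither multi-mapping nor multi-overlapping reads. Exon lengths are those in the deposited tables. Symbols matched 53274 of 53379 identifiers.

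Counts were fitted with edgeR 4.0.16 in R 4.3.3: filterByExpr (minimum count of 10; 13792 genes kept), TMM factors (0.952 to 1.036), robust quasi-likelihood test with the group as the only term, and Benjamini-Hochberg adjustment at 0.05 over all genes tested. The SE is the size of the log2 fold change over the square root of F. No 2 libraries were near-identical (chi-square per degree of freedom of at least 24.7). CPM values are TMM-normalised. Windows and coding sequences came from GENCODE M21 (GRCm38).

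The members, lists and alternatives were chosen with earlier results of these data known. Lists covered receptor and adaptors, transcription regulators, surface removal, GPI transamidase, other NK receptor ligands, and markers of leukocytes, macrophages and monocytes, T and NK cells, fibroblasts and colon epithelium. Named were all ligand and receptor genes, each list's gene of smallest p in each direction, genes past the threshold, the 3 nearest patterns per tested ligand gene, tested neighbours, and Ptprc, C1qa and Postn; any further gene was named with its values known. Alternatives were RLE, upper-quartile and library-size scaling, DESeq2 1.42.0, limma-voom (limma 3.58.1), no filter, 5 CPM in 2 libraries, a replicate block, each library left out and, added after seeing the data, summed RAE-1 counts.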

Additional observations from a re-analysis of the deposited data

How the results depend on the processing

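Ulbp1 stayed higher in responder libraries in all 12 alternatives run, with log2 fold changes of 0.26 to 0.46 and adjusted p of 0.366 to 1, and Raet1d stayed lower in all 13 (-0.17 to -0.054, adjusted p of 0.888 to 1). Raet1e had no stable sign in 13 alternatives: it was 0.033 with library size alone, 0.017 with limma-voom and 0.010 with the replicate block, and ran from -0.21 to 0.24 with 1 library left out. The number of genes called, 0 in the fit reported, was 62 with DESeq2, 212 with no low-count filter and 856 at an unadjusted p of 0.05, and ran from 41 to 516 with 1 library left out; a lone library is then taken to vary as much as the pair it is set against. With the replicate number as a block, 32 genes were called and no ligand gene was. The unadjusted p of Ulbp1 (edgeR) was 0.038 with that block and 0.0386 with library size alone, against 0.0939 in the fit reported. Their adjusted p was 0.366 and 0.853. In the other settings with no library left out the unadjusted p was 0.068 to 0.108, by the test of each setting. The labels do not say that the numbers pair libraries, and the within-group differences of replicate 1 and 2 had a correlation of 0.37 across 13792 genes, which are not independent.

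Calls within the pathway lists are not read from fits that leave 1 library in a group. With 1 library left out, Gpaa1 ran from -0.0027 to 0.71 and Pvr from -0.10 to 0.36. The median of the other NK receptor ligands was 0.15 with a filter of 5 CPM in 2 libraries, which tests fewer genes, and ran from -0.37 to 0.17 with 1 library left out. The cause of these changes was not tested. Depth limits H60b and H60c, which gave 2 and 0 reads in all, and the Raet1d and Raet1e values rest on 111 to 201 reads per library.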
